A study of Homo sapiens with 6 samples.

Results

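Secretoglobin, trefoil and AGR genes encode products of glandular epithelium that are secreted or that work in the secretory pathway, and 4 of them were examined, namely SCGB2A2, TFF1, TFF3 and AGR2. Rows of the count table were taken by gene name, which found 2 of the 4 among 21494 genes, SCGB2A2 and AGR2. TFF1 and TFF3 had no row among those genes and were not analysed here. The set was selected on measured values, namely counts in these same samples, in which SCGB2A2 was empty in every control sample. Values of SCGB2A2 and AGR2 in this comparison are therefore given as a description without a test.

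RNA-seq data came from 6 samples labelled as G361, a human melanoma cell line. Control sh, labelled as genotype WT, had 3 samples with a control shRNA, and VprBP sh, labelled DCAF1 Knockdown, had 3 samples with an shRNA against DCAF1, the gene of VprBP. The methods describe lentiviral delivery of a single shRNA sequence against VprBP followed by puromycin selection. They do not say how the control shRNA was delivered or whether the control cells were selected. The labels also name LD611 as cell source, and no label says whether replicates were separate cultures, so that p-values measure the spread between these samples, which may be technical.

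The labels put both groups in the same line, and several values bear on that before any fold is read. DCAF1 was lower in VprBP sh without overlap of the groups, but by less than 2-fold, and was not called. The melanocytic genes TYR, DCT, SOX10 and S100B had no row. Summed urothelial markers ran from 107525 to 118994 normalized counts in Control sh but from 24192.6 to 27813.1 in VprBP sh. Summed mammary luminal markers were higher in VprBP sh. In Control sh the urothelial sum rested largely on KRT5, which averaged 64989 normalized counts there and 3488 in VprBP sh. By calls, 5 of 8 urothelial markers tested were lower and 1 higher, and 6 of 9 mammary luminal markers tested were higher and 0 lower. Over all genes tested, 24.5% were called higher and 22.0% lower. TRPS1, GATA3, SCGB1D2 and SCGB2A1, near empty in Control sh, could be called only as higher. Urothelial markers empty in VprBP sh, such as UPK1B, could be called only as lower. Not every marker followed its list, as UPK3B and PPARG had higher means and CDH1 and ESR1 lower means in VprBP sh. Whether both groups derive from the same cell line was not tested, and an effect of the shRNA and a difference between cell lines cannot be told apart in any fold given here.

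SCGB2A2 encodes mammaglobin A, a small secreted protein of the secretoglobin family that is best known from mammary epithelium, where it pairs with the product of SCGB1D2. AGR2 encodes a disulfide isomerase of the endoplasmic reticulum that assists the folding of mucins in secretory cells. Trefoil factors are small secreted peptides of mucous surfaces, and TFF1 is a classical estrogen-induced gene of breast cancer cells. In bulk samples such as these, fewer cells of a type and less RNA per cell cannot be told apart.

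The start regions of the 2 measured genes are shown because their transcripts were near absent from Control sh. Each window runs from 250 bases before to 50 bases after the RefSeq transcript start on GRCh38.p14 and is read 5′ to 3′ on the strand of the gene. Capitals mark matches to the motifs searched on both strands. SCGB2A2 lies at chr11:62269908-62270207 on the plus strand, and AGR2 at chr7:16804950-16805249 on the minus strand.
SCGB2A2: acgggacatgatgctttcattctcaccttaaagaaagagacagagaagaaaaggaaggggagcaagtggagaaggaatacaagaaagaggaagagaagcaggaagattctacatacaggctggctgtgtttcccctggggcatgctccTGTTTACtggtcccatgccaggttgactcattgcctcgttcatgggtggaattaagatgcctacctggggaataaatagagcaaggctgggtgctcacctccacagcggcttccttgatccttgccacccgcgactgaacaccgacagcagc
AGR2: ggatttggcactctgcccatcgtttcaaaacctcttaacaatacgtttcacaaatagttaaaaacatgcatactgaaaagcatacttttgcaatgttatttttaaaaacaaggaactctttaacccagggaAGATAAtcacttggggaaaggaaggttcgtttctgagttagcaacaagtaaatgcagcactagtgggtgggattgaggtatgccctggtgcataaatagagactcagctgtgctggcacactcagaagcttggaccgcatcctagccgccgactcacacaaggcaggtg
The SCGB2A2 window holds the forkhead motif TGTTTAC from -102 to -96, a motif found in 3.42% of 35116 promoter windows of the same length. The AGR2 window holds the GATA motif AGATAA from -119 to -114, found in 10.3% of the windows. Neither window holds an exact TATAAA box (11.5% of windows), the forkhead variant TGTTTGC (3.89%), the GATA variant TGATAA (7.53%), a full palindromic estrogen response element (0.057%), the shorter site GGTCA (37.4%), the endoplasmic reticulum stress element ERSE (0.0769%) or the SPDEF motif GGATGT (10.1%). The longest run that both windows share is ataaatagag, of 10 bases, which starts at -31 in SCGB2A2 and at -28 in AGR2. It was not among the motifs searched. GGTCA is contained in the full element, and the other motifs were counted independently. A match or its lack describes these letters in this window and nothing beyond it.

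SCGB2A2 was not detected in Control sh and was abundant in VprBP sh. It lies on chromosome 11 of hg38 from 62270158 to 62273160 on the plus strand, with 3 exons in its canonical transcript and no overlapping gene. Its counts, which are the deposited estimates rounded to whole numbers, were 0, 0 and 0 in Control sh replicates 1, 2 and 3 and 5738, 4223 and 6132 in VprBP sh replicates 1, 2 and 3. All 3 VprBP sh samples were thus high, all 3 Control sh samples were empty and the groups did not overlap. Scaled by upper quartile factors to normalized counts, the VprBP sh values were 6407, 4388 and 4701, or 5165 ± 1086 (SD, n = 3). A count of 0 allows up to 3 counts per sample, which lie between 2.84 and 3.48 normalized counts for Control sh and cover counting error only. Against that floor SCGB2A2 was at least 1617-fold higher in VprBP sh.

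After scaling, replicate 1 was the highest of the VprBP sh samples for SCGB2A2 and replicates 2 and 3 lay close together. The coefficient of variation among the VprBP sh samples was 21.0% for SCGB2A2, against a median of 9.56% over genes tested averaging 50 or more normalized counts in that group. By mean normalized count in VprBP sh, SCGB2A2 ranked 672 among the 21494 genes.

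AGR2 was low but not absent in Control sh. It lies on chromosome 7 from 16791811 to 16833433 on the minus strand, with 8 exons in the canonical transcript, 7 annotated transcripts and no overlapping gene. Its counts were 14, 3 and 3 in Control sh replicates 1, 2 and 3 and 314, 295 and 373 in VprBP sh replicates 1, 2 and 3. Every VprBP sh sample lay far above every Control sh sample, and within Control sh replicate 1 stood apart from the other two. Its normalized counts averaged 7.44 ± 7.61 across Control sh against 314 ± 33.0 across VprBP sh (SD, n = 3), a fitted log2 fold change of 5.44 (standard error 0.39), or 43.4-fold. Without Control sh replicate 1, the fitted fold change was 99.1. The coefficient of variation in VprBP sh was 10.5%, close to the median over genes, and AGR2 ranked 9223 of 21494 genes by its mean there.

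**Figure D1:**
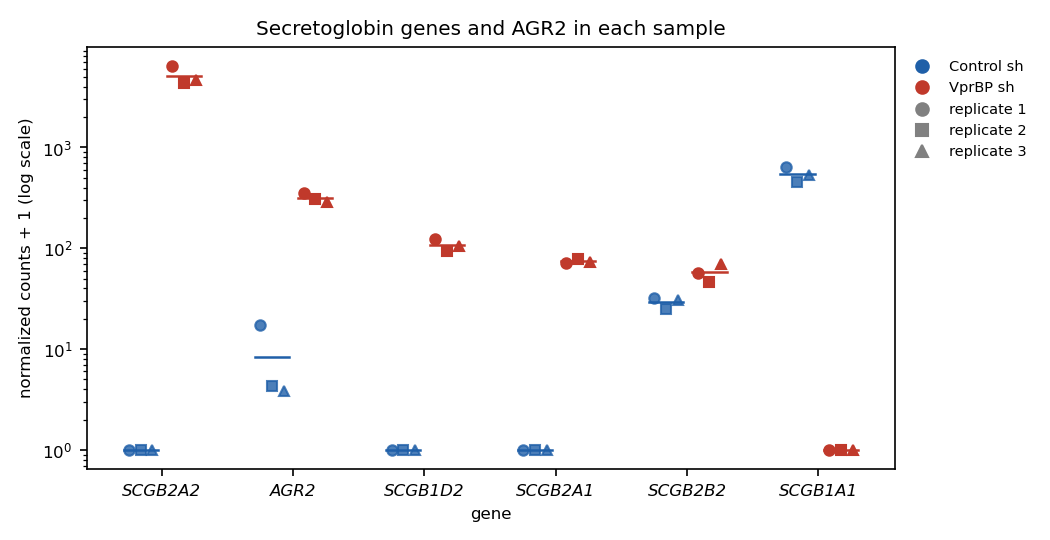
Normalized counts plus 1 (log scale) of 6 genes in each sample, with Control sh in blue and VprBP sh in red; the symbol shape gives the replicate and the bar the group mean. SCGB2A2, SCGB1D2 and SCGB2A1 sit at 0 counts in all Control sh samples, SCGB1A1 sits at 0 counts in all VprBP sh samples, and AGR2 has one Control sh sample, replicate 1, above the other two.

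Levels can be set between genes only per length, and here they are RPKM-like values, that is counts divided by exon length and by library total. With the union of all annotated exons as the length, the mean level in VprBP sh was 167 ± 36.3 for SCGB2A2 (SD, n = 3), 11.4 ± 1.65 for SCGB1D2, 6.90 ± 0.363 for SCGB2A1, 5.56 ± 0.625 for AGR2 and 0.387 ± 0.0756 for SCGB2B2. SCGB2A2 stood above the other genes by far more than the spread between replicates. With the canonical transcript as the length, the level was 499 ± 108 for SCGB2A2 and 9.05 ± 1.02 for AGR2, so that AGR2 moved from below to above SCGB2A1 and the order of these neighbours depends on the length used. In Control sh the level by exon union was 39.3 ± 6.27 for SCGB1A1 and 0.113 ± 0.114 for AGR2.

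The genes whose profile over the 6 samples was most like each measured gene were taken by the smallest Euclidean distance in log2(normalized counts + 1). For SCGB2A2 these were PXDN, at a distance of 0.575, AMOT, at 1.24, and IRX5, at 1.31. PXDN encodes a peroxidase of the extracellular matrix, AMOT a scaffold protein of cell junctions and IRX5 a homeobox factor. For AGR2 they were LRFN1 at 0.810, APLP1 at 0.966 and KLHL35 at 1.25. LRFN1 had 11, 2 and 3 counts in Control sh against 227, 372 and 429 in VprBP sh, and in all 3 genes like AGR2 the highest Control sh count was again that of replicate 1. Both sets of neighbours share with the member a low Control sh level and the same 6 libraries.

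VprBP sh was compared with Control sh in a fit over all 16756 genes that passed a filter on low counts, with edgeR's quasi-likelihood test. Calls required a fold change over 2 and an adjusted p (Benjamini-Hochberg) below 0.05. Of the genes tested 46.4% were called, 24.5% as higher and 22.0% as lower in VprBP sh, so a called gene is common in this comparison. Which direction held more calls depended on the scaling, with 4097 higher and 3681 lower by upper quartile, 4899 and 3248 by library size alone, 3747 and 3938 by TMM and 3634 and 3987 by DESeq2. The groups did not overlap in 79.5% of genes tested, with VprBP sh higher in 42.2% and lower in 37.3%, and SCGB2A2 and AGR2 are among those without overlap by the way they were chosen. Genes like SCGB2A2, near empty in Control sh (no sample above 3 counts) and averaging 50 or more normalized counts in VprBP sh, made up 1.39% of genes tested, and the reverse pattern made up 3.47%. Over all genes the median log2 difference was 0.08. Total counts ran from 18195949 to 26883948 per sample, and the target of the shRNA, DCAF1, had 688, 893 and 884 counts in Control sh against 681, 488 and 628 in VprBP sh. Its normalized counts were 869 ± 90.6 against 583 ± 154 (SD, n = 3), a log2 difference of -0.58 that stayed under 2-fold and was not called. The groups did not overlap and the edgeR adjusted p was 0.0125, so DCAF1 missed the call by its fold change alone. VprBP sh replicate 1 lay closest to Control sh. Mitochondrial transcripts took 1.96% to 1.98% of counts in Control sh against 4.10% to 4.48% in VprBP sh, and the part of this difference in the results below was not tested.

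The other secretoglobins did not move in a common direction. Of 11 family members listed, 5 were in the table, and besides SCGB2A2 the other 4 were all called, 3 as higher and 1 as lower, beside 46.4% called over all genes. SCGB1D2, which encodes lipophilin B, the partner of mammaglobin A, had 0 counts in every Control sh sample and 109, 89 and 135 counts in VprBP sh, at least 33.2-fold higher (adjusted p = 3.06e-06 from edgeR). SCGB2A1, which encodes mammaglobin B, had 0 counts in every Control sh sample and 63, 75 and 94 in VprBP sh, at least 23.0-fold higher (adjusted p = 4.79e-06 from edgeR). Like SCGB2A2, they were empty in all Control sh samples and detected in all VprBP sh samples.

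SCGB1A1, which encodes uteroglobin, the secreted protein of airway club cells, went the other way. It had 554, 422 and 561 counts in Control sh against 0 in every VprBP sh sample, at least 186-fold lower (adjusted p = 1.76e-07 from edgeR). SCGB2B2 went from 28.2 ± 3.83 to 56.6 ± 11.3 normalized counts (SD, n = 3) (log2 fold change 1.01, standard error 0.27, edgeR adjusted p = 0.00627). Its call was at the 2-fold limit and was lost with TMM factors, with DESeq2, without a filter on low counts, with a replicate block, without Control sh replicate 2, without VprBP sh replicate 3, with replicates 2 and 3 summed and after thinning. Here and in the lists below, genes at 0 or near it in a group passed the filter only through the other group. SCGB1D2, SCGB2A1 and SCGB1A1 each overlap a long noncoding RNA on the opposite strand in GENCODE 44, and whether counting used strand is not given in the sources used here, so their counts are uncertain to that extent. SCGB2B2 overlaps 6 annotated genes, among them a long noncoding RNA and a small nucleolar RNA on its own strand, and its counts are uncertain as well.

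SCGB2A2 and SCGB2A1 resemble each other around their starts, and the stretch is shown for that likeness between members of the family. Over the 160 bases from -110 to +50, set side by side without gaps, the windows of SCGB2A2 and SCGB2A1 matched at 137 bases (85.6%), and the longest shared run was 21 bases. Among the pairs of windows of SCGB2A2, AGR2, SCGB1D2 and SCGB2A1, the other 5 matched at 21.9% to 25.6% of these bases. The SCGB2A1 stretch lies at chr11:62208563-62208722 on the plus strand, and capitals mark the 23 bases that differ from SCGB2A2 at the same distance from the start.
SCGB2A1: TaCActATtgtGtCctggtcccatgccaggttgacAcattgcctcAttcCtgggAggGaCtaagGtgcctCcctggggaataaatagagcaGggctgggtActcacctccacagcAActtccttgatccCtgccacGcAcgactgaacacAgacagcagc
SCGB2A1 had no match to the forkhead motif of SCGB2A2, and its whole window held only a match to GGATGT on its minus strand, from -231 to -226. The SCGB1D2 window held only GGTCA, on its minus strand from -57 to -53.

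The neighbourhood of SCGB2A2 on chromosome 11 held genes that rose and genes that fell. Within 250 kb of it 9 other genes were in the table and 7 were tested, of which 3 were called higher, 2 lower and 2 not called, beside 46.4% called over all genes. SCGB1D2, SCGB2A1 and ASRGL1 passed the filter on low counts only through VprBP sh, and SCGB1A1 only through Control sh. SCGB1D2 lies 25.3 kb and SCGB2A1 56.2 kb below SCGB2A2. ASRGL1, which encodes an asparaginase, lies 64.3 kb above it and had 5, 0 and 7 counts in Control sh against 593, 538 and 766 in VprBP sh (log2 fold change 7.11, standard error 0.35, edgeR adjusted p = 8.19e-08). SCGB1A1 lies 131.9 kb above SCGB2A2, beyond ASRGL1, and was the nearest tested gene to be called lower. AHNAK, which encodes a large scaffold protein, followed at 160.4 kb and fell from 28178 ± 5827 to 11356 ± 1372 normalized counts (SD, n = 3), with a log2 difference of -1.31 and an edgeR adjusted p = 2.86e-05. INCENP, a subunit of the chromosomal passenger complex 117.0 kb below, was not called, at 4586 ± 142 and 3353 ± 252 normalized counts.

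**Figure D2:**
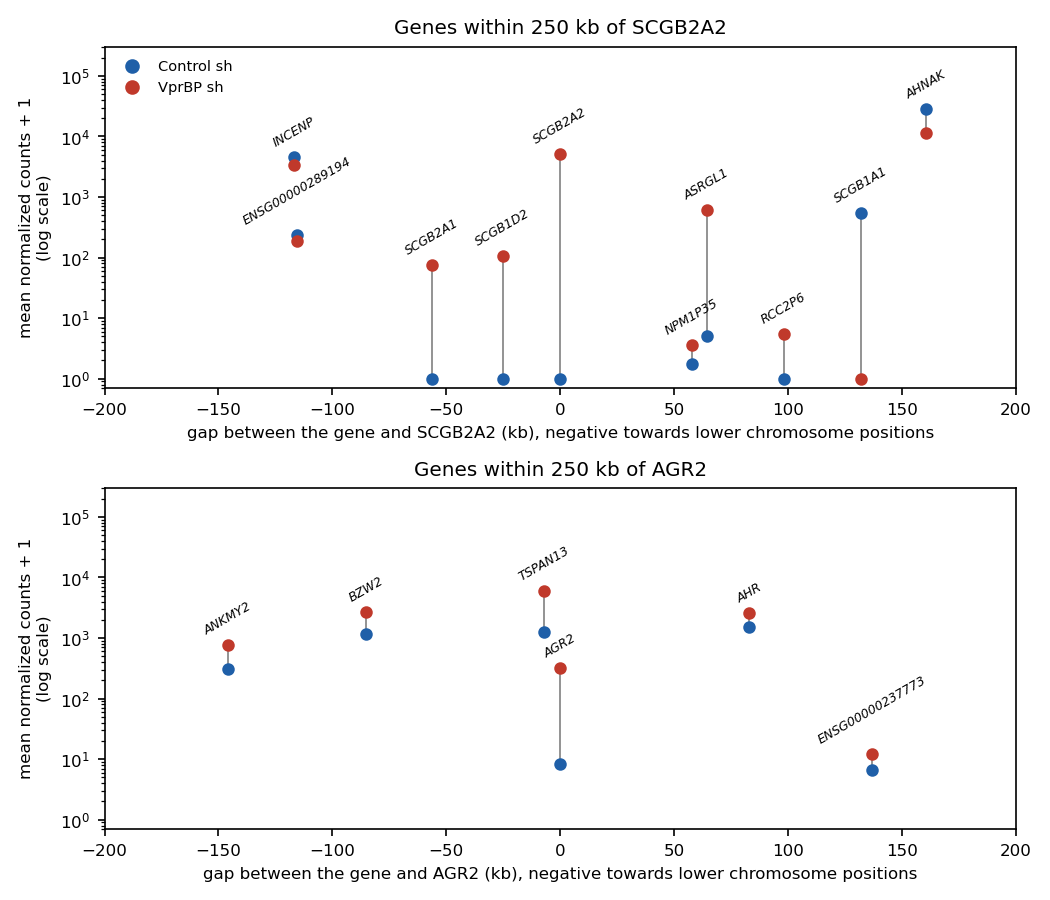
Mean normalized counts plus 1 (log scale) of the genes within 250 kb of SCGB2A2 and of AGR2 in Control sh (blue) and VprBP sh (red), by the gap to that gene in kb. Around SCGB2A2, SCGB2A1, SCGB1D2 and ASRGL1 are higher and SCGB1A1 and AHNAK lower in VprBP sh, while around AGR2 every plotted gene has the higher mean in VprBP sh.

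Near AGR2 on chromosome 7, 5 genes were tested, of which 3 were called higher, 0 lower and 2 not called, beside 24.5% called higher over all genes. TSPAN13, which encodes a tetraspanin and lies 7.3 kb below AGR2, rose from 1248 ± 41.7 to 6017 ± 386 normalized counts (SD, n = 3), with a log2 difference of 2.27 and an edgeR adjusted p = 1.49e-08. BZW2 rose from 1176 ± 87.5 to 2698 ± 69.5 normalized counts and ANKMY2 rose by 1.30 on the log2 scale (adjusted p = 1.01e-06 and 8.49e-06 from edgeR). AHR, the aryl hydrocarbon receptor gene, had 1491 ± 97.0 and 2541 ± 205 normalized counts and did not reach 2-fold. AGR2 had a larger fold change and a lower count than the 3 called genes around it.

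The trefoil genes lie on chromosome 21, TFF3 from 42311667 to 42315409 and TFF1 from 42362282 to 42366535 in GENCODE 44, and were not analysed here, but genes around them were. Within 250 kb of TFF1, 5 genes were tested and all 5 were called higher, beside 24.5% of all genes. Of these, LINC01671 and RSPH1 passed the filter on low counts only through VprBP sh, so they could be tested only as genes higher there. TMPRSS3, which encodes a transmembrane serine protease and lies 5.4 kb from TFF1, had 33, 31 and 27 counts in Control sh against 575, 1032 and 1558 in VprBP sh (log2 fold change 4.91, standard error 0.28, edgeR adjusted p = 2.34e-07). ABCG1, a lipid exporter gene 14.4 kb from TFF3, rose from 95.4 ± 15.2 to 677 ± 76.9 normalized counts (SD, n = 3), with a log2 difference of 2.83 and an edgeR adjusted p = 1.80e-07. LINC01671, a long noncoding RNA 232.7 kb from TFF1, had 0 counts in every Control sh sample and 74, 130 and 160 in VprBP sh, at least 35.5-fold higher (adjusted p = 5.72e-06 from edgeR). SLC37A1 rose by 1.28 on the log2 scale (adjusted p = 5.45e-06 from edgeR). RSPH1 had 4, 4 and 0 counts in Control sh against 24, 37 and 43 in VprBP sh, which was 11.1-fold and, without Control sh replicate 3, 7.11-fold.

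Transcription factors and receptors known to act on secretory epithelial genes were called in both directions. Of 33 regulators listed 26 were tested, and 9 were called higher, 7 lower and 10 not called, which is 61.5% called beside 46.4% over all genes. The median log2 fold change of the list was 0.03. SPDEF, an ETS factor of secretory cells, had 11, 14 and 26 counts in Control sh against 4888, 6373 and 8711 in VprBP sh (log2 fold change 8.44, standard error 0.19, edgeR adjusted p = 1.11e-09). GATA3, a luminal zinc finger factor, had 7, 1 and 0 counts in Control sh against 1580, 1334 and 1873 in VprBP sh, which was 517-fold and, without Control sh replicate 1, 2427-fold. The factors named here were low in every Control sh sample and high in every VprBP sh sample.

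XBP1, a factor of the unfolded protein response and of secretory cell differentiation, rose from 2135 ± 33.9 to 25542 ± 3182 normalized counts (SD, n = 3), with a log2 difference of 3.58 and an edgeR adjusted p = 5.36e-09. FOXA1, a forkhead pioneer factor, rose from 1265 ± 220 to 5141 ± 52.5 normalized counts, a log2 fold change of 2.02 (adjusted p = 3.90e-07 from edgeR). The related FOXA2 had 72, 73 and 88 counts in Control sh against none in VprBP sh, at least 28.1-fold lower, and FOXA3 fell by 2.90 on the log2 scale (adjusted p = 3.33e-06 and 0.000133 from edgeR). The 3 genes of the FOXA group thus did not share a direction.

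Of the hormone receptors in the list, PRLR, the prolactin receptor gene, had 0 counts in every Control sh sample and 1001, 1102 and 1497 in VprBP sh, at least 356-fold higher (adjusted p = 1.30e-08 from edgeR). PGR, the progesterone receptor gene, had 51, 72 and 88 counts in Control sh against 0 in every VprBP sh sample, at least 25.2-fold lower (adjusted p = 6.90e-06 from edgeR). ESR1, the estrogen receptor gene, was not called, at 153 ± 6.36 and 99.7 ± 9.33 normalized counts. NKX2-1, a factor of lung and thyroid, had 64, 58 and 69 counts in Control sh against 0 in every VprBP sh sample, at least 23.1-fold lower (adjusted p = 5.60e-06 from edgeR). CREB3L1 and CREB3L4, bZIP factors of the secretory pathway, rose by 5.85 and 2.62 on the log2 scale (adjusted p = 1.82e-06 and 2.80e-08 from edgeR).

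Mucins, a family that includes clients of AGR2 and companions of trefoil factors, were called in both directions. Of 17 listed, 7 were tested, 3 were called higher and 4 lower, beside 24.5% and 22.0% of all genes. Without a filter on low counts 8 of 9 mucins were called, beside 9575 of 21494 genes. MUCL1, a small mucin of breast and sweat gland, had 1, 1 and 0 counts in Control sh against 2451, 6188 and 9000 in VprBP sh, at least 1677-fold higher (adjusted p = 1.09e-07 from edgeR). In contrast to SCGB2A2 and AGR2, its normalized count was lowest in VprBP sh replicate 1. MUC15 had 0 counts in every Control sh sample and 198, 276 and 362 in VprBP sh, at least 82.0-fold higher, and MUC1, a transmembrane mucin, rose by 2.98 on the log2 scale (adjusted p = 4.68e-07 and 5.66e-08 from edgeR). MUC16, the CA125 antigen gene, had 464, 316 and 349 counts in Control sh against 0, 2 and 2 in VprBP sh, at least 138-fold lower (adjusted p = 1.31e-07 from edgeR). MUC4 had 2025, 812 and 919 counts in Control sh against 0, 5 and 2 in VprBP sh, which was 583-fold lower and, without VprBP sh replicate 2, 1329-fold lower. MUC2, the intestinal mucin whose production requires AGR2, had 118, 70 and 59 counts in Control sh against 0, 2 and 2 in VprBP sh, at least 30.7-fold lower, while AGR2 was higher there.

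**Figure D3:**
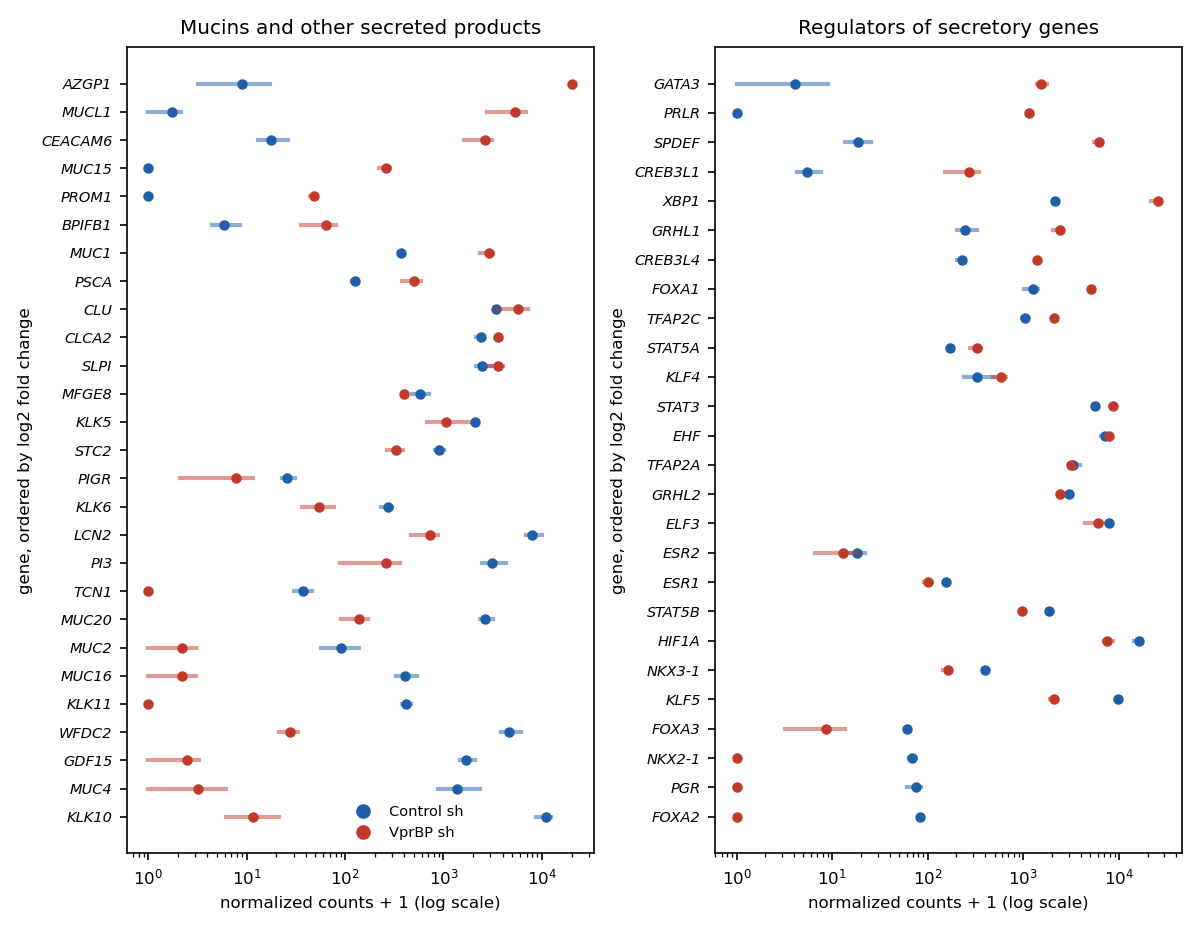
Normalized counts plus 1 (log scale) of tested mucins and other secreted products (left) and of regulators of secretory genes (right), ordered by log2 fold change; points are group means of 3 samples and bars span the lowest to the highest sample, with Control sh in blue and VprBP sh in red. AZGP1, MUCL1, GATA3, PRLR and SPDEF are near the left edge in Control sh and far to the right in VprBP sh, and KLK10, MUC4, GDF15 and FOXA2 show the reverse.

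Among other secreted products of glandular epithelium, more genes fell than rose. Of 36 listed 20 were tested, with 5 called higher, 10 lower and 5 not called, beside 24.5% called higher and 22.0% lower over all genes. AZGP1, a zinc-binding glycoprotein of breast and prostate secretions, had 14, 2 and 6 counts in Control sh against 17693, 19419 and 26632 in VprBP sh, which was 2547-fold and, without Control sh replicate 1, 4817-fold. KLK10, a kallikrein protease gene, had 7433, 11389 and 12698 counts in Control sh against 18, 5 and 9 in VprBP sh, which was 1068-fold lower and, without VprBP sh replicate 1, 1752-fold lower. KLK11 had 323, 363 and 488 counts in Control sh against 0 in every VprBP sh sample, at least 140-fold lower, and GDF15, a stress-induced cytokine, was at least 580-fold lower (adjusted p = 1.40e-07 and 7.99e-09 from edgeR). LCN2, an iron-scavenging lipocalin, and WFDC2, an epithelial protease inhibitor, fell, with log2 differences of -3.44 and -7.43 (adjusted p = 1.18e-06 and 1.02e-08 from edgeR). CEACAM6 rose by 7.32 (adjusted p = 9.03e-08 from edgeR). The median log2 fold change of the list was -1.21.

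The enzymes that share the thioredoxin fold or the oxidative folding pathway with AGR2 did not follow it. Of 25 listed, 19 besides AGR2 were tested, and 0 were called higher, 5 lower and 14 not called, beside 46.4% called over all genes. The 5 were ERO1A, PDIA3, PDIA4, PDIA5 and PRDX4. ERO1A, the oxidase that recharges disulfide isomerases, fell from 11794 ± 359 to 1995 ± 39.3 normalized counts (SD, n = 3), with a log2 difference of -2.56 and an edgeR adjusted p = 4.53e-09. PDIA3 fell by 1.28, PDIA5 by 1.27 and PDIA4 by 1.13 on the log2 scale (adjusted p = 3.38e-07, 3.15e-05 and 9.15e-07 from edgeR). The calls of PDIA4 and PRDX4 were lost with scaling by library size alone. The summed normalized counts of the list ran from 115077 to 118423 in Control sh and from 67315.9 to 68308 in VprBP sh.

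Chaperones of the endoplasmic reticulum and genes of the unfolded protein response were called in 36.7%, beside 46.4% over all genes, with 4 of 30 higher, 7 lower and 19 not called. ATF4, a stress transcription factor, and HERPUD1, a component of protein degradation at the endoplasmic reticulum, rose by 2.12 and 1.68 on the log2 scale (adjusted p = 2.40e-08 and 1.02e-07 from edgeR). The chaperone gene HSP90B1 fell from 27843 ± 397 to 8123 ± 1178 normalized counts (SD, n = 3), with a log2 difference of -1.78 and an edgeR adjusted p = 3.67e-07. HSPA5 fell by 1.39 and MANF by 1.47 on the log2 scale (adjusted p = 8.99e-06 and 1.71e-05 from edgeR). XBP1 was thus higher in the samples in which the chaperone genes HSPA5, HSP90B1, CALR and DNAJB11 were lower, of which CALR was not called with library size alone. Other genes of the list had higher levels by exon union in VprBP sh than in Control sh, such as CANX (74.0 against 42.4) and SSR1 (31.9 against 12.9). The median log2 fold change of the list was 0.21.

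Proteins reported to bind trefoil factors or AGR2 were tested for 7 of 10 listed genes, with 3 called higher, 3 lower and 1 not called, beside 46.4% called over all genes. FCGBP, a mucus protein that binds TFF3, had 54, 87 and 81 counts in Control sh against 330, 368 and 551 in VprBP sh, with a log2 difference of 2.32 and an edgeR adjusted p = 1.24e-06. LYPD3, a membrane receptor reported for AGR proteins, rose by 1.15, and DAG1, the dystroglycan gene, fell by 1.14 on the log2 scale (adjusted p = 0.000276 and 9.83e-07 from edgeR). ACKR3, a chemokine receptor gene, had 1110, 996 and 1135 counts in Control sh against 0 in every VprBP sh sample, at least 393-fold lower (adjusted p = 2.60e-08 from edgeR). DMBT1, at 9.03 ± 2.81 and 19.2 ± 4.10 normalized counts, was at the 2-fold limit and lost its call with TMM factors, with DESeq2, with a replicate block, with replicates 2 and 3 summed and in 4 of the 6 fits that left out a sample, those without Control sh replicates 1 and 3 and VprBP sh replicates 2 and 3. The call of DAG1 was lost with library size alone.

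Genes of the estrogen response, which includes TFF1 and TFF3 in breast cells, were called in both directions, 8 higher and 8 lower of 28 tested, which is 57.1% called beside 46.4% over all genes. With TMM and with DESeq2 the split was 7 higher and 9 lower, and the call of KRT19, a keratin gene at the 2-fold limit, was lost in 8 of 14 alternatives. RERG, a RAS-like growth inhibitor gene, had 7, 8 and 16 counts in Control sh against 1387, 1464 and 1990 in VprBP sh (log2 fold change 7.12, standard error 0.18, edgeR adjusted p = 1.67e-09). CA12, a carbonic anhydrase gene, had 1752, 2124 and 2487 counts in Control sh against 4, 4 and 13 in VprBP sh, which was 332-fold lower and, without VprBP sh replicate 3, 504-fold lower. CCND1, the cyclin D1 gene, fell from 119215 ± 4989 to 5171 ± 562 normalized counts (SD, n = 3), and AREG, an EGF receptor ligand gene, fell by 5.57 on the log2 scale (adjusted p = 1.65e-09 and 9.54e-09 from edgeR). GREB1 was not called, at 20.9 ± 6.42 and 14.4 ± 5.83 normalized counts. The median log2 fold change of the list was -0.39.

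**Figure D4:**
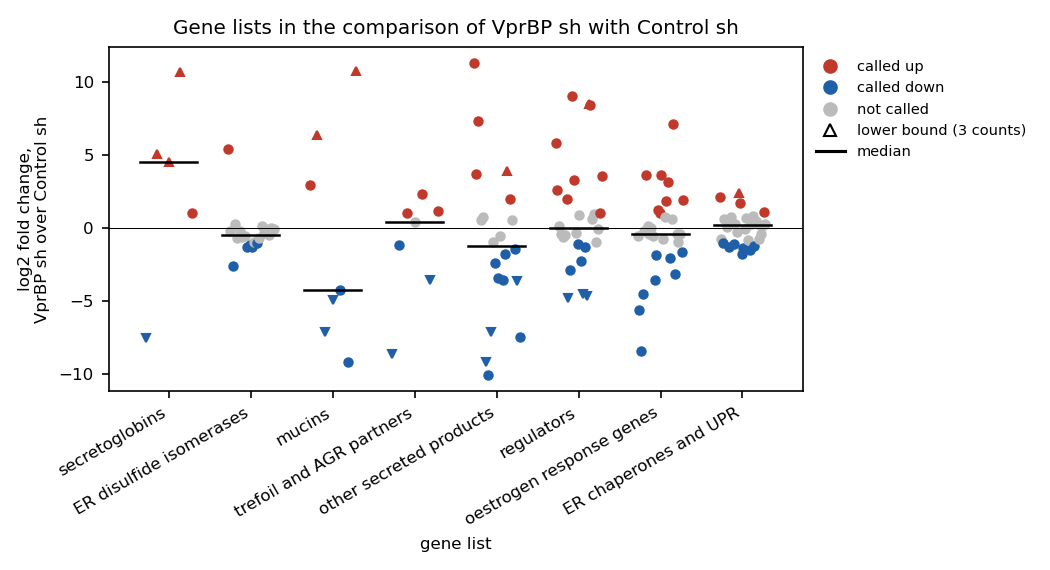
Log2 fold change of VprBP sh over Control sh for each tested gene of 8 lists, with called genes in red (higher) and blue (lower), others in grey and the list median as a bar; triangles are lower bounds of genes with at most 3 counts in every sample of a group, computed against 3 counts per sample. Every list holds called genes in both directions, and AGR2 is the lone red point among the disulfide isomerases.

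Markers of cell types were read beside these results because the labels name more than one cell line. Of 13 mammary luminal markers, 9 were tested, with 6 called higher, 0 lower and 3 not called, beside 24.5% called higher over all genes, and 3 others had no row. Of those called higher, TRPS1, SCGB1D2, SCGB2A1 and GATA3 passed the filter on low counts only through VprBP sh. They could thus be tested only as genes higher there. The list shares SCGB1D2, SCGB2A1, GATA3, FOXA1 and ESR1 with the secretoglobins and regulators above, so these counts are not separate from theirs. The summed normalized counts of the list ran from 40213.8 to 44444.7 in Control sh and from 68118.5 to 73574.3 in VprBP sh. By exon-union level, CDH1 (70.2 in Control sh against 52.6) and ESR1 (0.469 against 0.355) were lower in VprBP sh. TRPS1, a GATA-type factor of luminal breast cells, had 0, 1 and 0 counts in Control sh against 1637, 1651 and 2339 in VprBP sh, at least 557-fold higher (adjusted p = 1.07e-09 from edgeR). PIP, another mammary secretory marker, was not tested, with 0 counts in every Control sh sample and 4, 11 and 14 in VprBP sh, and KRT8, called higher, lost its call with TMM factors, with DESeq2, without Control sh replicate 1 and without VprBP sh replicates 2 and 3.

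Of 11 urothelial markers, 8 were tested, with 1 called higher, 5 lower and 2 not called, beside 22.0% called lower over all genes, and their summed normalized counts ran from 107525 to 118994 in Control sh and from 24192.6 to 27813.1 in VprBP sh. TP63, a basal epithelial factor, fell from 8929 ± 1015 to 9.44 ± 0.979 normalized counts (SD, n = 3), with a log2 difference of -9.86 and an edgeR adjusted p = 3.24e-10. UPK1B, a uroplakin gene, had 500, 641 and 709 counts in Control sh against 0 in every VprBP sh sample, at least 222-fold lower, and the keratin genes KRT13 and KRT5 fell, with log2 differences of -9.47 and -4.22 (adjusted p = 5.29e-08, 6.90e-09 and 3.56e-07 from edgeR). By exon-union level, UPK3B (6.55 in Control sh against 13.7) and PPARG (0.974 against 2.96) were higher in VprBP sh. Of 8 melanocytic markers 4 were in the table, their summed normalized counts ran from 199 to 236 in Control sh and from 244 to 308 in VprBP sh, and the 2 tested, MITF and PMEL, were not called, while TYR, DCT, SOX10 and S100B had no row. Of 10 stromal, endothelial and blood cell markers 6 were tested, with 0 called higher, 5 lower and 1 not called, beside 22.0% called lower over all genes, and their summed normalized counts ran from 1367 to 1725 in Control sh and from 32.4 to 48.3 in VprBP sh. The endothelial gene CDH5 was at least 162-fold lower, and the macrophage gene CD68 and the endothelial gene VWF fell, with log2 differences of -7.67 and -4.42 (adjusted p = 1.02e-08, 5.09e-08 and 1.62e-06 from edgeR). PECAM1, also endothelial, was the gene not called, at a log2 difference of 0.20 that changed sign in 3 of 14 alternatives. PTPRC, CD3E, HBB and DCN had no row. The markers moved with the same 6 samples as SCGB2A2 and AGR2, and their part in the values of these genes was not tested.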

How the data were processed

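RNA-seq estimated counts per gene for 6 samples, 3 Control sh and 3 VprBP sh, were analysed, with groups and replicate numbers taken from the sample titles. Per the paper's methods and the labels, the authors used STAR on single-end reads (hg38) and Partek Flow for quantification, and the deposited values are expected counts (estimated counts), without the upper quartile normalization described and without pooling replicates. Of the values 59.8% are whole numbers. The methods name a strand-specific KAPA kit and the labels a SMARTER kit. The smallest row total is 10.

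Values were rounded to whole counts, which departs from a design written for counts. Genes were tested with edgeR 4.0.16 in R 4.3.3, with the quasi-likelihood test, upper quartile factors (quantile 0.75), its filter on low counts (minimum 10) and no replicate block, in place of the Gene Specific Algorithm of Partek Flow. Each standard error was taken as the absolute log2 value over the root of the F statistic. Where no sample of a group exceeded 3 counts, the fold given is a lower bound against 3 counts per sample, averaged over the group. Lengths came from GENCODE 44, matched by gene ID for 21460 of 21494 genes, and promoter windows from RefSeq on GRCh38.p14, which held SCGB2A2, AGR2, SCGB1D2 and SCGB2A1. Motif searches used Python 3.11.15 with biopython 1.88. The members, lists and tests were chosen with earlier results of these data known. The text names the members, genes of the lists (with the 4 largest changes per list among called genes with at least 50 normalized counts), genes within 250 kb and the 3 nearest profiles. DCAF1 was read as the targeted gene. The test was tried on counts simulated for this comparison (14278 genes, 200 changed by 2 on the log2 scale). There edgeR recovered 99.5% with 2 false calls and DESeq2 97.5% with 2. The trial held far fewer changes than the 7778 genes called here, and none set beyond 2 on the log2 scale. Recovery with so many changes, or with larger ones, was not tested. Alternatives were TMM factors, library size alone, DESeq2 1.42.0, other filters, a replicate block, leaving out each sample, summing replicates 2 and 3, thinning to the smallest total and another prior count.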

Additional observations from a re-analysis of the deposited data

How the results depend on the processing

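Among the 153 values recomputed for the number of calls, the gene lists and the 2 measured genes, 8 moved by more than 1.5 times (counts) or more than the spread between replicates (fold changes). The 145 others include AGR2 without Control sh replicate 1, whose fold change went from 43.4 to 99.1 within the wide spread of that group. SCGB2A2 and AGR2 stayed higher in VprBP sh wherever they were tested, but the majority of calls over all genes turned from higher to lower with TMM and DESeq2, and some genes not called, such as TXNDC12 in 6 fits and PMEL in 5, changed sign. Requiring at least 10 counts in every sample, which drops genes empty in either group, left 4690 called of 13103 tested, against 7778 of 16756. In the lists, 1 of 1 secretoglobins was called against 5 of 5, and 2 of 2 mucins against 7 of 7. Trefoil and AGR partners gave 3 of 4 against 6 of 7, and other secreted products 7 of 12 against 15 of 20. Regulators gave 9 of 18 against 16 of 26. The lower counts thus go with fewer genes tested. That filter gave no value for SCGB2A2 or AGR2. The log2 lower bound for SCGB2A2 was 10.66, and 11.09 with replicates 2 and 3 summed and 10.37 after thinning, both of which change what 3 counts per sample amount to. Its bound uses no prior count, so that setting was not run for it.

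Leaving out each sample gave 7949 to 8142 called genes of 17197 to 17323 tested. In the lists, 4 to 5 of 5 secretoglobins, 5 to 6 of 7 partners and 15 to 18 of 20 to 22 other secreted products were called. Regulators gave 16 to 17 of 26 to 27, and estrogen response genes 15 to 18 of 28. SCGB2A2 had a log2 bound of 10.47 to 10.76 and AGR2 a log2 fold change of 5.01 to 6.63. Scaling set the median over genes (log2) to 0.08 by upper quartile, -0.01 by TMM, -0.04 by DESeq2 and 0.29 by library size alone, and changes are to be read against it. The groups share replicate numbers, but departures from the group mean, compared between samples sharing a number, correlated at -0.14, -0.03 and -0.11, so the numbers were not taken as pairing. With the replicate block the test called 7686 of 16756 genes and 4 of 5 secretoglobins and gave a log2 fold change of 5.48 for AGR2. No value is given for TFF1 and TFF3. Depth limits SCGB2A2 in Control sh to at most 3 counts per sample.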
